A study of Mus musculus with 8 samples.

Results

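The ATP-binding cassette (ABC) transporter genes were compared between bone-derived mesenchymal stem cells (MSc) that lack all 3 hyaluronan synthases and wildtype MSc. Members were the rows of the deposited gene table whose gene name is Abc followed by a subfamily letter from a to g, a number and at most 1 further letter. This rule found 46 genes among 49782 named genes. Members with other symbols (Tap1, Tap2 and Cftr) were kept apart as a list, and Abcc1, Abca2, Abca9 and Abcc5 were not analysed here because no locus carries these names. All 8 libraries are RNA sequencing libraries of cultured cells, 1 per mouse, with 4 mice per genotype. Has-tKO mice carry constitutive knockouts of Has1 and Has3, and Has2 was removed from their cells in culture by a Cre recombinase that 4-hydroxytamoxifen activates. Wildtype mice were C57Bl6/J. Cells of both genotypes received 4-hydroxytamoxifen in culture and were sampled on day 7 of osteogenic differentiation. The sources used here do not give the promoter behind the Cre, nor the strain background and age of the Has-tKO mice.

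ABC transporters are membrane proteins that use ATP to move lipids, peptides, metabolites, drugs or metal-containing compounds across a membrane. They fall into subfamilies A to G, of which A and G include the exporters of cholesterol and phospholipid, B and C include the multidrug exporters and several mitochondrial carriers, and D works in the peroxisome and lysosome. Subfamilies E and F have the ATP-binding domains without a membrane part and act on the ribosome. In macrophages, which can accompany bone marrow stromal cultures, Abca1 and Abcg1 hand cholesterol to lipoproteins under control of the sterol-sensing liver X receptors (LXR).

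Levels are deposited FPKM (fragments scaled to transcript length and to all mapped fragments), and each mean ± SD is over n = 4 libraries of a genotype. Fold changes are differences of log2(FPKM + 1), Has-tKO minus wildtype, fitted with limma across all named genes that reached 1 FPKM in at least 4 libraries. A gene passed when its p, adjusted by the Benjamini-Hochberg method over all tested genes, was under 0.05. The sequencing depth is unknown. Of the targeted genes, Has1 and Has2 were not analysed here because no locus carries their names. Has3, too low to test, was at 0.150 to 0.663 FPKM in Has-tKO and 0.236 to 0.466 FPKM in wildtype. The groups overlapped, so the values do not show a lower Has3 in Has-tKO and give no check of the genotype labels. Whether the reads at Has3 come from its deleted stretch was not tested. Wildtype 1 and Has-tKO 4 stood apart in the share of FPKM on loci without a gene name, at 56.4% in Has-tKO 4 and 61.5% in wildtype 1, against 45.4% to 48.7% in the other 6 libraries. Wildtype 1 also had a median-ratio size factor of 0.660, against 0.984 to 1.14 in the other 7 libraries, and it was the lowest of the 8 libraries for 64.0% of all 9915 tested genes and for 18 of 22 tested ABC genes. Without these 2 libraries 3 ABC genes rose, both as deposited and after scaling (Abca3, Abcb1b and Abcg1). The median log2 fold change of all tested genes was 0.16 as deposited and -0.03 after division by the size factors. Both values are therefore given for each ABC gene that passed and for some of the other genes. Cultured cells were measured in bulk, so a difference in the number of cells of a type and a difference in RNA per cell cannot be told apart. Markers of MSc and osteoblasts, 9 of 12 in the table, were present in all libraries (summed level 1153 to 1484 FPKM in Has-tKO and 1661 to 2054 FPKM in wildtype). None of their 8 tested genes passed as deposited. After scaling Alpl (-1.07, limma adjusted p = 0.0136) and Ibsp (-1.21, adjusted p = 0.0140) fell, where 1.32% of all tested genes fell. The median over the 8 was -0.18 as deposited and -0.40 after scaling. The part of this in the ABC values was not tested.

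Abca3, a lamellar body lipid transporter known for loading surfactant phospholipid in the lung, rose in Has-tKO cells with and without scaling. The multidrug exporter gene Abcb1b and the sterol exporter gene Abcg1 rose after scaling and missed the threshold as deposited. Of the 22 tested ABC genes, 1 rose (4.55%) and none fell in the values as deposited, where 1.58% of all tested genes rose and 0.192% fell. After scaling 3 rose (13.6%) and none fell, against 1.38% and 1.32% of all tested genes. In either direction 1.78% of all tested genes passed as deposited and 2.7% after scaling. At an unadjusted p under 0.05 there were 7 ABC genes as deposited and 6 after scaling, or 31.8% and 27.3% of the 22, against 16.7% and 18.7% of all tested genes. As deposited 20 of the 22 fold changes were above 0 (90.9%, against 73.3% of all tested genes), and after scaling 13 were (59.1%, against 44.8%). By subfamily, the median log2 fold change of the tested members as deposited was 0.59 in A, 0.13 in B, 0.36 in C, 0.43 in E, 0.30 in F and 0.48 in G. After scaling it was 0.37 in A, -0.08 in B, 0.17 in C, 0.21 in E, 0.06 in F and 0.29 in G. Of these, A and G were the highest in both fits and B the lowest. These medians rest on few tested genes, 4 in A, 6 in B, 3 in C, 1 in E (Abce1), 3 in F and 2 in G. They therefore give no firm ranking of the subfamilies. The median of the 22 was 0.28 as deposited and 0.08 after scaling, or 0.13 and 0.12 above that of all tested genes.

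The upstream sequences of Abca3 and Abcb1b, which rose, and of Abca1, the most abundant member, which did not pass, are shown as the 250 bases before the RefSeq gene start in GRCm38.p6, since members that moved together may be compared there. Abca3 spans chr17:24351773-24352022 on the plus strand, Abcb1b chr5:8797897-8798146 on the plus strand and Abca1 chr4:53159896-53160145 on the minus strand, each printed 5′ to 3′ along its gene. Capitals mark the GC box (GGGCGG), the CCAAT box (CCAAT) and the TATA box (TATAAA) on either strand.
Abca3: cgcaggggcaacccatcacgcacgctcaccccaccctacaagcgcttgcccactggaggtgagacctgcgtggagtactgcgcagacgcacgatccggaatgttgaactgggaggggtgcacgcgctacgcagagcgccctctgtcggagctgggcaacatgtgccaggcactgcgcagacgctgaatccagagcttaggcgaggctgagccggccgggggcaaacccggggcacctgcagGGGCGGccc
Abcb1b: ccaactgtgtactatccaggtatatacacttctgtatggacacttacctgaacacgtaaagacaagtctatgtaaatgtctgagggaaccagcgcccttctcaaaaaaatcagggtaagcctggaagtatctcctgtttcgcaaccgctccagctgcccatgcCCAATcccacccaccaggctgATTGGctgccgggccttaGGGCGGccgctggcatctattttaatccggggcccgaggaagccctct
Abca1: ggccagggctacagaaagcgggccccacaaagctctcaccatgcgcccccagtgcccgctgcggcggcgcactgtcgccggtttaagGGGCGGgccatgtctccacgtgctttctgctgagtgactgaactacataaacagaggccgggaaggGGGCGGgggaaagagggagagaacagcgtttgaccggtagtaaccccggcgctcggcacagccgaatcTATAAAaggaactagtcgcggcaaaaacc

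The Abca3 window held 1 GC box close to the gene start, the Abcb1b window 1 GC box and 2 CCAAT boxes on opposite strands, and the Abca1 window 2 GC boxes and 1 TATA box. A window of this kind was found for 35 of the 46 members, and Abcg1 was not among them. GC boxes were in 16 of these 35 (45.7%, against 32.9% of 27025 RefSeq windows), CCAAT boxes in 12 (34.3%, against 34.5%) and TATA boxes in 5 (14.3%, against 13.0%). The exact form of the LXR element, the half-site AGGTCA repeated after 4 bases of any kind, was in none of the 35. It was in 0.0111% of all windows. Forms of the element with other letters were not searched, so this cannot tell whether a window, that of Abca1 included, holds 1. The half-site alone was in 5 (14.3%, against 13.8%), namely Abcb6, Abcb11, Abcc2, Abcc10 and Abcg2. The AP-1 motif TGANTCA was in none (6.87% of all), the NF-kappaB motif in Abcc9 and Abcf2 (7.01% of all), and the Egr motif GCGNGGGCG in Abca17, Abcb4 and Abcd3 (4.65% of all). None of these last 4 motifs was in the windows of Abca3, Abcb1b or Abca1, which says only that the letters are absent there. The 16 tested members with a window had a median GC content of 61.6% and the 19 untested ones 51.6%, against 52.0% over all windows.

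In subfamily A, 4 of 14 members were tested, and their summed level was 52.2 ± 5.53 FPKM in Has-tKO and 35.3 ± 8.53 FPKM in wildtype. Abca3 was at 8.38, 7.60, 6.28 and 8.94 FPKM in the 4 Has-tKO libraries, and at 1.28, 2.74, 4.02 and 2.91 FPKM in the 4 wildtype libraries. Every Has-tKO library was above every wildtype library, and wildtype 1 was the lowest. The means were 7.80 ± 1.15 FPKM in Has-tKO and 2.74 ± 1.13 FPKM in wildtype (log2 fold change 1.28, SE 0.23, limma adjusted p = 0.0203, and after scaling 1.09, SE 0.17, adjusted p = 0.0159). The scaled levels did not overlap either, at 5.68 to 8.27 in Has-tKO and 1.93 to 3.83 in wildtype. As deposited Abca3 did not pass without wildtype 4 (limma adjusted p = 0.0748), Has-tKO 1 (0.101), Has-tKO 2 (0.0602) or Has-tKO 4 (0.0762), and without wildtype 1 it passed at a log2 fold change of 1.06 (adjusted p = 0.0106). After scaling it did not pass without wildtype 2, wildtype 4, Has-tKO 1 or Has-tKO 4 (limma adjusted p = 0.0550 to 0.0656).

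Abca1, which hands cholesterol and phospholipid to apolipoproteins, was at 44.4, 37.1, 33.3 and 33.8 FPKM in Has-tKO and at 21.5, 28.0, 34.8 and 25.3 FPKM in wildtype. Wildtype 3 lay within the Has-tKO range, so the groups overlapped. The means were 37.2 ± 5.10 FPKM in Has-tKO and 27.4 ± 5.62 FPKM in wildtype (log2 fold change 0.44, SE 0.18, limma adjusted p = 0.241, and after scaling 0.18, adjusted p = 0.504). Abca7, a lipid transporter related to Abca1 that is also studied in phagocytosis, was at 5.07, 4.69, 4.06 and 5.86 FPKM in Has-tKO and at 1.28, 3.09, 4.33 and 2.16 FPKM in wildtype. Again wildtype 3 alone reached into the Has-tKO range, and the gene did not pass (log2 fold change 0.73, SE 0.24, adjusted p = 0.138, and after scaling 0.55, adjusted p = 0.144). Without wildtype 3 it passed (0.93, adjusted p = 0.0442, and after scaling 0.70, adjusted p = 0.0471). That was 1 of the 8 fits with 1 library left out, and Abca7 passed in no other of them, as deposited or after scaling. The limma adjusted p over these fits reached 0.334 as deposited and 0.362 after scaling. Leaving out the library that reached into the Has-tKO range widens the difference by itself. Abca5, a lysosomal member, had 1.36 ± 0.332 FPKM in Has-tKO and 1.62 ± 0.387 FPKM in wildtype (-0.15, adjusted p = 0.696), and its scaled levels did not overlap, at 0.972 to 1.50 in Has-tKO and 1.52 to 1.87 in wildtype (-0.29, adjusted p = 0.251). The other members of the Abca5 gene cluster on chromosome 11 were low in both genotypes, Abca8b having the highest mean of them at 0.503 ± 0.150 FPKM in Has-tKO and 0.547 ± 0.304 FPKM in wildtype.

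**Figure D1:**
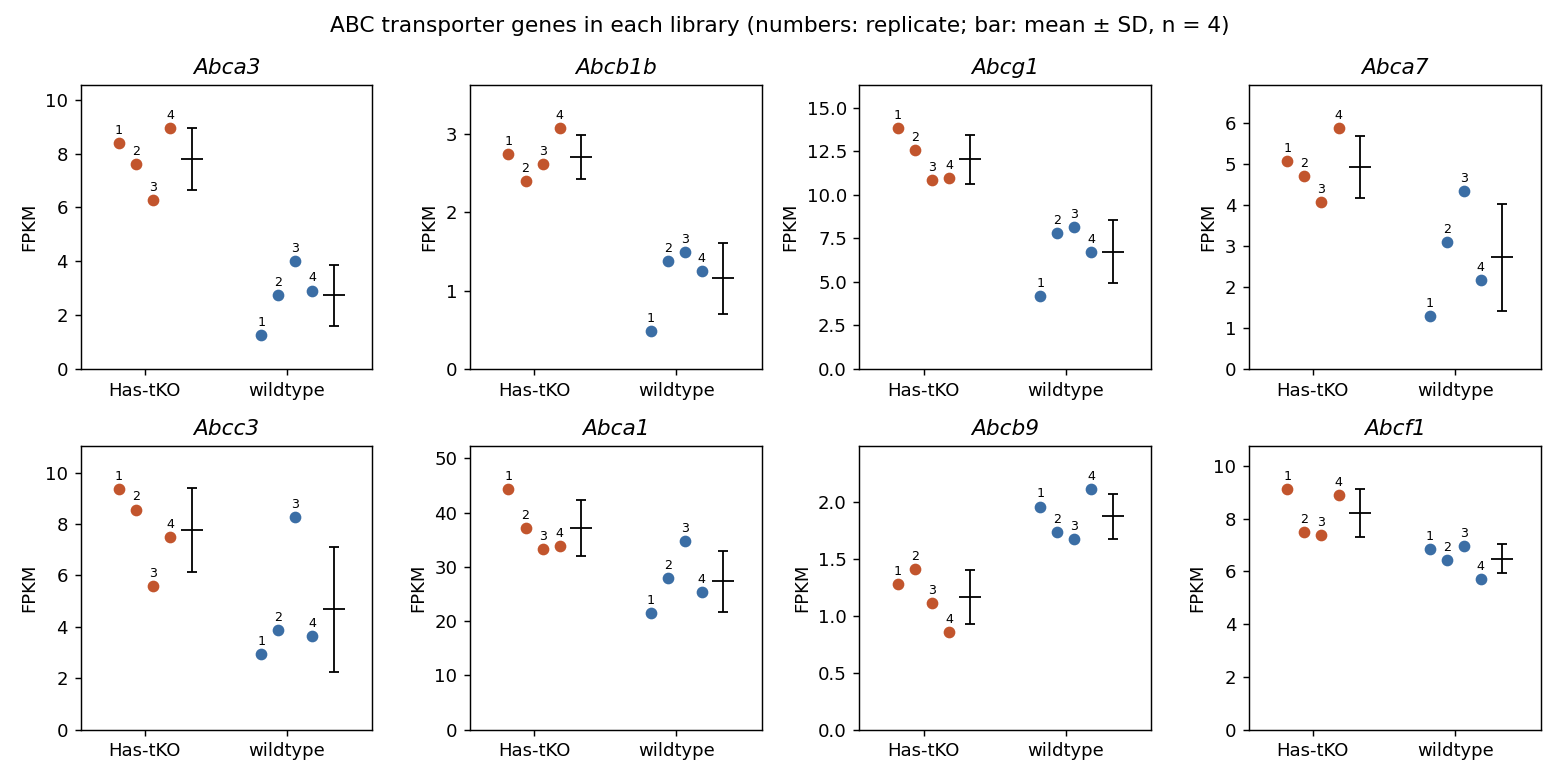
FPKM of 8 ABC transporter genes in each library, with Has-tKO on the left and wildtype on the right of each panel. Points are libraries numbered by replicate, bars are mean ± SD (n = 4), and for Abca3 the 4 Has-tKO libraries at 6.28 to 8.94 FPKM all lie above the 4 wildtype libraries at 1.28 to 4.02 FPKM.

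In subfamily B, 6 of 10 members were tested, and the subfamily summed to 22.2 ± 1.84 FPKM in Has-tKO and 19.3 ± 4.75 FPKM in wildtype. Abcb1b, which encodes a P-glycoprotein that expels many drugs in rodents, was at 2.74, 2.41, 2.62 and 3.08 FPKM in Has-tKO and at 0.490, 1.39, 1.50 and 1.25 FPKM in wildtype. The groups did not overlap, and all wildtype libraries were below the lowest Has-tKO library. The means were 2.71 ± 0.280 FPKM in Has-tKO and 1.16 ± 0.456 FPKM in wildtype (log2 fold change 0.81, SE 0.19, limma adjusted p = 0.0509), and Abcb1b rose after scaling (0.67, SE 0.14, adjusted p = 0.0387). In the scaled fit it passed without wildtype 1 or wildtype 3 and not when 1 of the other 6 libraries was left out, with an adjusted p of 0.0368 to 0.133 over these 8 fits. Its near-copy Abcb1a was under the filter at 0.192, 0.184, 0.166 and 0.144 FPKM in Has-tKO and 0.0585, 0.140, 0.207 and 0.149 FPKM in wildtype, with overlap. Their levels are uncertain, since reads of such close copies can be split between them. The neighbouring Abcb4, the phosphatidylcholine exporter of liver bile, was under the filter too, at 0.974, 0.777, 1.06 and 0.582 FPKM in Has-tKO and 0.267, 0.590, 0.434 and 0.412 FPKM in wildtype. Has-tKO 4 fell just below wildtype 2, so the groups overlapped there.

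Abcb9, a lysosomal peptide transporter, had the lowest fold change of the 22. It was at 1.28, 1.41, 1.12 and 0.856 FPKM in Has-tKO and at 1.96, 1.74, 1.68 and 2.11 FPKM in wildtype. The groups did not overlap, yet the gene did not pass (log2 fold change -0.41, SE 0.15, limma adjusted p = 0.188, and after scaling -0.57, SE 0.16, adjusted p = 0.0949). None of the mitochondrial members passed. Abcb10, needed for haem synthesis in the red cell lineage of mice, was the most abundant of them at 4.53, 6.47, 4.86 and 3.88 FPKM in Has-tKO and 3.54, 5.39, 4.86 and 4.80 FPKM in wildtype (0.07, adjusted p = 0.878), and the groups overlapped. Abcb6, a porphyrin transporter, had 4.61 ± 0.0915 FPKM in Has-tKO and 3.98 ± 1.07 FPKM in wildtype (0.20, adjusted p = 0.602). Abcb8, a subunit of a mitochondrial potassium channel complex, had 4.25 ± 0.153 FPKM in Has-tKO and 4.20 ± 1.11 FPKM in wildtype (0.04, adjusted p = 0.930). After scaling Abcb8 did not overlap between the groups, at 3.65 to 4.02 in Has-tKO and 4.06 to 4.90 in wildtype, without passing (-0.16, adjusted p = 0.393). Of 20 tested genes of haem and iron-sulphur cluster assembly, none passed, as deposited or after scaling (19 tested). The smallest p belonged to Slc25a28, a mitochondrial iron importer (3.98 ± 0.926 FPKM in Has-tKO, 2.01 ± 0.808 FPKM in wildtype, log2 fold change 0.75, adjusted p = 0.0926).

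Libraries of the 2 genotypes did not overlap in 5 of the 22 tested ABC genes as deposited. In 4 of these Has-tKO was higher (Abca3, Abcb1b, Abcf1 and Abcg1), or 18.2%, against 12.0% of all tested genes. In Abcb9 it was lower, or 4.55%, against 1.53%. After scaling Has-tKO was higher in 3 (Abca3, Abcb1b and Abcg1), or 13.6%, against 5.57% of all tested genes. It was lower in 3 (Abca5, Abcb8 and Abcb9), or 13.6%, against 7.73%.

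In subfamily C, 3 of 8 members were tested and none passed. Abcc3, an exporter of glucuronide conjugates, was at 9.37, 8.57, 5.59 and 7.50 FPKM in Has-tKO and at 2.94, 3.88, 8.29 and 3.66 FPKM in wildtype. The groups overlapped through wildtype 3, which lay above Has-tKO 3 and Has-tKO 4 (means 7.76 ± 1.63 FPKM in Has-tKO and 4.69 ± 2.43 FPKM in wildtype, log2 fold change 0.68, SE 0.26, limma adjusted p = 0.196). Without wildtype 3 the gene passed as deposited (0.95, adjusted p = 0.0284). That was the only pass as deposited among the 8 fits with 1 library left out, over which the limma adjusted p reached 0.449. After scaling the log2 fold change of Abcc3 was 0.47 (limma adjusted p = 0.292). It then passed in 0 of the 8 fits with 1 library left out (smallest adjusted p = 0.0641). Abcc4, an exporter of cyclic nucleotides and prostaglandins, was at 3.64, 3.37, 3.22 and 4.43 FPKM in Has-tKO and at 1.50, 3.07, 3.51 and 2.77 FPKM in wildtype (0.36, SE 0.20, adjusted p = 0.385, and after scaling 0.17, adjusted p = 0.524). Wildtype 3 again reached into the Has-tKO range. Abcc10, a broad drug exporter, had 1.89 ± 0.344 FPKM in Has-tKO and 1.76 ± 0.263 FPKM in wildtype (0.06, adjusted p = 0.867).

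Abcc6, whose loss in humans leads to calcification of elastic tissue through low pyrophosphate, was at 0.164, 0.344, 0.0948 and 0 FPKM in Has-tKO and at 0.338, 0.159, 0.184 and 0.0669 FPKM in wildtype, too low to test. Abcc9, the sulphonylurea receptor of vascular mural cells, was at 0.0843, 0.196, 0.238 and 0.484 FPKM in Has-tKO and at 0, 0.171, 0.326 and 0.302 FPKM in wildtype. Its channel partners Kcnj8 and Kcnj11 summed to at most 0.204 FPKM in a Has-tKO library and 0.0675 FPKM in a wildtype library, and the other receptor gene, Abcc8, was listed at 0 in all 8. Of 7 tested genes of extracellular pyrophosphate and phosphate handling, the phosphate importer Slc20a1 (1.06, adjusted p = 0.0268, and after scaling 0.83, adjusted p = 0.0225) and the ectonucleotidase Entpd1 rose. Entpd1 was at 4.53, 4.06, 2.59 and 5.14 FPKM in Has-tKO and at 0.867, 1.74, 2.29 and 1.16 FPKM in wildtype (1.02, SE 0.22, adjusted p = 0.0426, and after scaling 0.85, adjusted p = 0.0464). None of the 7 fell as deposited, and after scaling Alpl, the phosphatase that splits pyrophosphate, fell (-1.07, adjusted p = 0.0136). Of all tested genes 1.58% rose and 0.192% fell as deposited, and 1.38% rose and 1.32% fell after scaling.

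Of 17 tested genes of xenobiotic and glutathione conjugate handling, 2 rose and none fell, with the same count after scaling. Of all tested genes 1.58% rose and 0.192% fell as deposited, and 1.38% rose and 1.32% fell after scaling. Slco2a1, a prostaglandin importer, was at 4.49, 5.24, 5.30 and 4.66 FPKM in Has-tKO and at 0.701, 1.96, 2.13 and 1.49 FPKM in wildtype (log2 fold change 1.24, SE 0.20, limma adjusted p = 0.0152, and after scaling 1.07, adjusted p = 0.00981). Gclc, the catalytic subunit of the first enzyme of glutathione synthesis, was at 11.5, 9.52, 11.2 and 10.3 FPKM in Has-tKO and at 2.32, 4.55, 7.36 and 4.19 FPKM in wildtype (1.13, SE 0.24, adjusted p = 0.0404, and after scaling 0.91, adjusted p = 0.0309). In both genes all Has-tKO libraries were above all wildtype libraries. Of 10 tested genes of lipid mediator synthesis and export, 2 rose and none fell as deposited. Alox5, which starts leukotriene synthesis in myeloid cells, had 3.36 ± 0.898 FPKM in Has-tKO and 1.09 ± 0.635 FPKM in wildtype (1.08, adjusted p = 0.0387), and the sphingosine 1-phosphate receptor S1pr3 had 14.2 ± 3.54 FPKM in Has-tKO and 6.40 ± 1.58 FPKM in wildtype (1.04, adjusted p = 0.0410). After scaling the same 2 rose, and S1pr1 (-0.74, adjusted p = 0.0301) and the sphingosine 1-phosphate exporter Spns2 (-0.60, adjusted p = 0.0394) fell.

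In subfamily D no gene passed. Abcd3, a peroxisomal importer of fatty acids, had 4.35 ± 1.01 FPKM in Has-tKO and 4.13 ± 1.05 FPKM in wildtype (log2 fold change 0.06, limma adjusted p = 0.896), and Abcd4, which works in lysosomal vitamin B12 export, had 2.97 ± 0.448 FPKM in Has-tKO and 2.25 ± 0.501 FPKM in wildtype (0.29, adjusted p = 0.394). Abcd2, another peroxisomal member, was under the filter at 0.978 ± 0.271 FPKM in Has-tKO and 0.665 ± 0.302 FPKM in wildtype. Of 20 tested genes of peroxisome assembly and beta-oxidation none passed in either fit, the smallest p as deposited being that of catalase, Cat (0.88, adjusted p = 0.203).

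The ribosomal subfamilies E and F had no gene that passed. Abce1, which splits ribosomes after termination, was at 9.64, 12.7, 10.8 and 9.12 FPKM in Has-tKO and at 3.64, 9.87, 9.80 and 8.58 FPKM in wildtype (log2 fold change 0.43, SE 0.26, limma adjusted p = 0.422, and after scaling 0.21, adjusted p = 0.536). Abcf2 had the highest level of subfamily F, at 14.7, 13.4, 16.5 and 16.1 FPKM in Has-tKO and at 5.77, 14.1, 14.7 and 11.5 FPKM in wildtype (0.44, SE 0.25, adjusted p = 0.394, and after scaling 0.20, adjusted p = 0.517). For both genes wildtype 1 lay far under the other 3 wildtype libraries, of which 2 lay within the Has-tKO range. Abcf1, a translation factor of the same class, was at 9.13, 7.48, 7.40 and 8.90 FPKM in Has-tKO and at 6.84, 6.43, 6.98 and 5.72 FPKM in wildtype. These groups did not overlap as deposited but did after scaling (0.30, adjusted p = 0.340, and after scaling 0.06, adjusted p = 0.883). Abcf3 had 4.90 ± 0.761 FPKM in Has-tKO and 4.82 ± 0.648 FPKM in wildtype (0.02, adjusted p = 0.963). Of 17 tested genes of ribosome recycling, termination and the Gcn2 pathway none passed in either fit, Eif2s1 having the smallest p as deposited (0.53, adjusted p = 0.245).

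**Figure D2:**
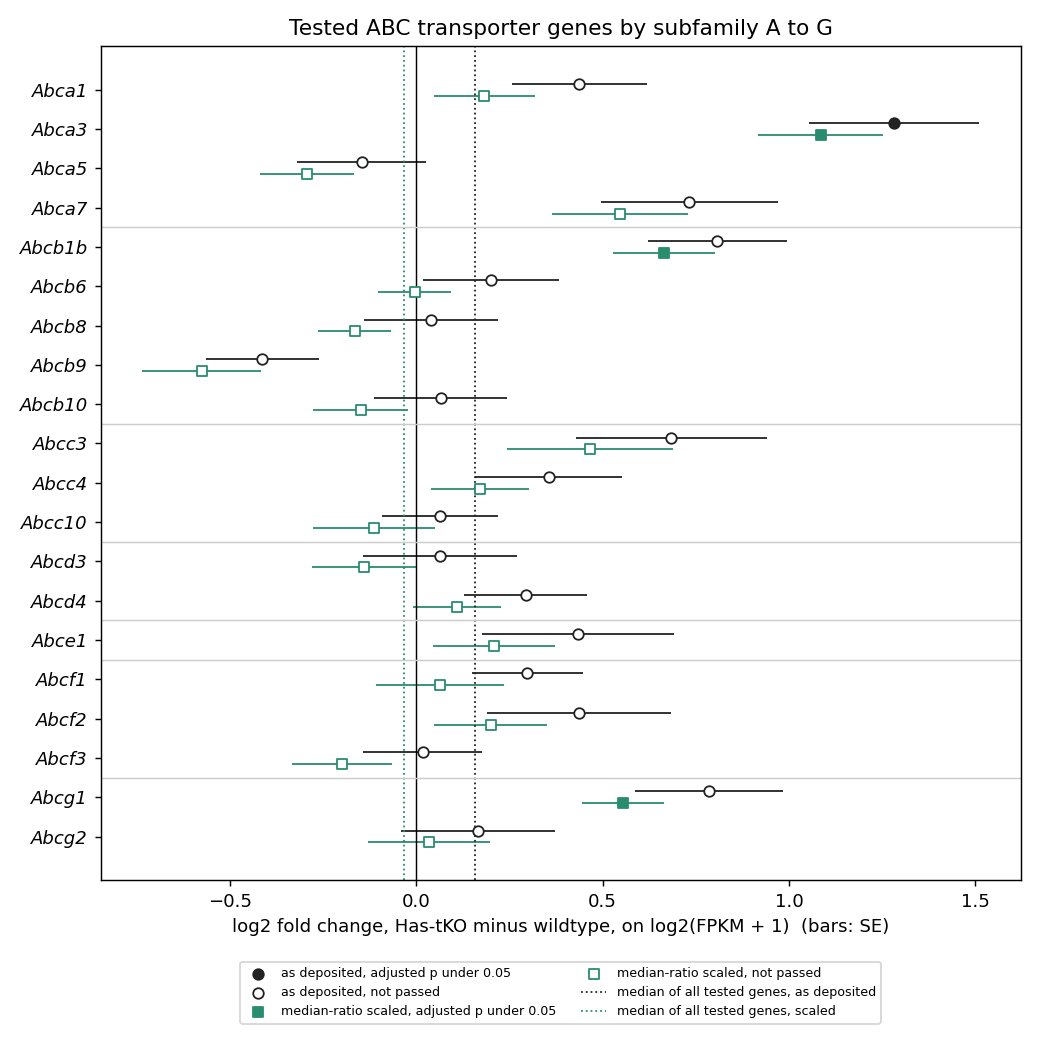
Log2 fold change, Has-tKO minus wildtype, of 20 of the 22 tested ABC genes, grouped by subfamily from A at the top to G at the bottom. Circles are values as deposited, squares are median-ratio scaled values, bars are SE, filled symbols passed, and dotted lines mark the medians of all tested genes at 0.16 and -0.03. Abca3 is filled in both fits, and Abcb1b and Abcg1 are filled after scaling.

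Subfamily G summed to 14.9 ± 1.85 FPKM in Has-tKO and 8.89 ± 2.64 FPKM in wildtype, and 2 of its 6 members were tested. Abcg1, which passes cellular cholesterol to mature high-density lipoprotein, was at 13.8, 12.6, 10.9 and 11.0 FPKM in Has-tKO and at 4.17, 7.81, 8.18 and 6.72 FPKM in wildtype. All Has-tKO libraries were above all wildtype libraries. The means were 12.1 ± 1.42 FPKM in Has-tKO and 6.72 ± 1.81 FPKM in wildtype (log2 fold change 0.79, SE 0.20, limma adjusted p = 0.0651), and Abcg1 rose after scaling (0.55, SE 0.11, adjusted p = 0.0353). The scaled levels were 9.82 to 12.4 in Has-tKO and 6.33 to 7.78 in wildtype. In the scaled fit it passed without wildtype 1 or wildtype 3 and not when 1 of the other 6 libraries was left out, with an adjusted p of 0.0374 to 0.135 over these 8 fits. Abcg2, an exporter of urate and many drugs that also marks side population stem cells, was at 1.87, 1.64, 1.86 and 0.952 FPKM in Has-tKO and at 0.595, 1.64, 1.35 and 1.69 FPKM in wildtype (0.17, adjusted p = 0.714). Its groups overlapped, with 1 low library in each genotype. Abcg3, a rodent relative of Abcg2, was under the filter at 1.17, 1.13, 0.462 and 0.805 FPKM in Has-tKO and at 0, 0.592, 0.583 and 0.228 FPKM in wildtype, with Has-tKO 3 inside the wildtype range.

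Genes around the sterol exporters mostly did not pass. Of 23 tested genes of sterol sensing, uptake and synthesis, 1 rose and none fell in both fits, the oxysterol enzyme gene Ch25h (log2 fold change 1.98, SE 0.32, limma adjusted p = 0.0156, and after scaling 1.79, adjusted p = 0.0190). It was at 21.1, 11.7, 12.4 and 7.10 FPKM in Has-tKO and at 1.001, 3.57, 3.66 and 1.95 FPKM in wildtype, with no overlap. The median of the 23 was 0.21 as deposited and -0.02 after scaling, where that of all tested genes was 0.16 and -0.03. The share of all tested genes that rose was 1.58% as deposited and 1.38% after scaling.

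Of 16 tested macrophage markers 3 rose and none fell as deposited (Cx3cr1, Cd52 and Spi1), and 2 rose after scaling (Cx3cr1 and Clec7a), where 1.58% and 1.38% of all tested genes rose, with a median log2 fold change of 1.001 as deposited and 0.74 after scaling. The 17 markers in the table summed to 640 to 1043 FPKM in Has-tKO and 377 to 653 FPKM in wildtype, and none was listed at 0 throughout. Wildtype 3, with the highest marker sum of the wildtype libraries (653 FPKM), had the highest wildtype value in 11 of the 22 tested ABC genes, Abca3, Abcb1b and Abcg1 among them. Has-tKO 3, with the lowest marker sum of the Has-tKO libraries (640 FPKM), had the lowest Has-tKO value in 10 of the 22, which include Abca3 and Abcg1 but not Abcb1b. Wildtype 2, with a marker sum of 406 FPKM, had the highest wildtype value in 9 of the 22. Has-tKO 4, with a marker sum of 994 FPKM, had the lowest Has-tKO value in 7 of the 22. The shares over all tested genes were not computed, so these counts have no background to be read against. After scaling the sums overlapped too, at 579 to 936 in Has-tKO and 376 to 621 in wildtype. Wildtype 1 then had the second highest wildtype sum (572) but the lowest scaled Abca3 (1.93) and Abcg1 (6.33) of all libraries. The part of macrophages in these values was not tested. Among mural cell markers none of 5 tested genes passed, and their 7 genes in the table summed to 73.7 to 107 FPKM in Has-tKO and 90.0 to 236 FPKM in wildtype. The largest part was Ndufa4l2 (54.4 FPKM in Has-tKO, 102 FPKM in wildtype), at 202 FPKM in wildtype 1. Rgs5 and Cox4i2 had lower means in Has-tKO too. The means of Notch3 (9.03 FPKM in Has-tKO, 6.84 FPKM in wildtype), Mcam (0.576 and 0.167 FPKM) and Cspg4 (15.4 and 15.3 FPKM) were not lower. Lymphoid markers summed to at most 0.428 FPKM in Has-tKO and 0.282 FPKM in wildtype, with Cd3e, Cd3d, Cd79b and Trac listed at 0. Few markers of other cells were high enough to test, namely 1 of 9 endothelial genes in the table (Egfl7), 2 of 9 fat cell genes (Pparg and Lpl) and 2 of 9 red cell genes (Hbb-bs and Hbb-bt), and none of these 5 passed in limma in either fit. The endothelial genes summed to 6.45 to 7.20 FPKM in Has-tKO and 5.35 to 6.87 FPKM in wildtype. Most of this was Egfl7 (4.40 FPKM in Has-tKO, 5.06 FPKM in wildtype), while the means of the other 8 were higher in Has-tKO, as for Esam (1.22 FPKM in Has-tKO, 0.504 FPKM in wildtype). The fat cell genes summed to 15.8 to 20.1 FPKM in Has-tKO and 10.1 to 17.9 FPKM in wildtype, and the red cell genes to 2.97 to 7.63 FPKM in Has-tKO and 1.78 to 5.60 FPKM in wildtype.

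**Figure D3:**
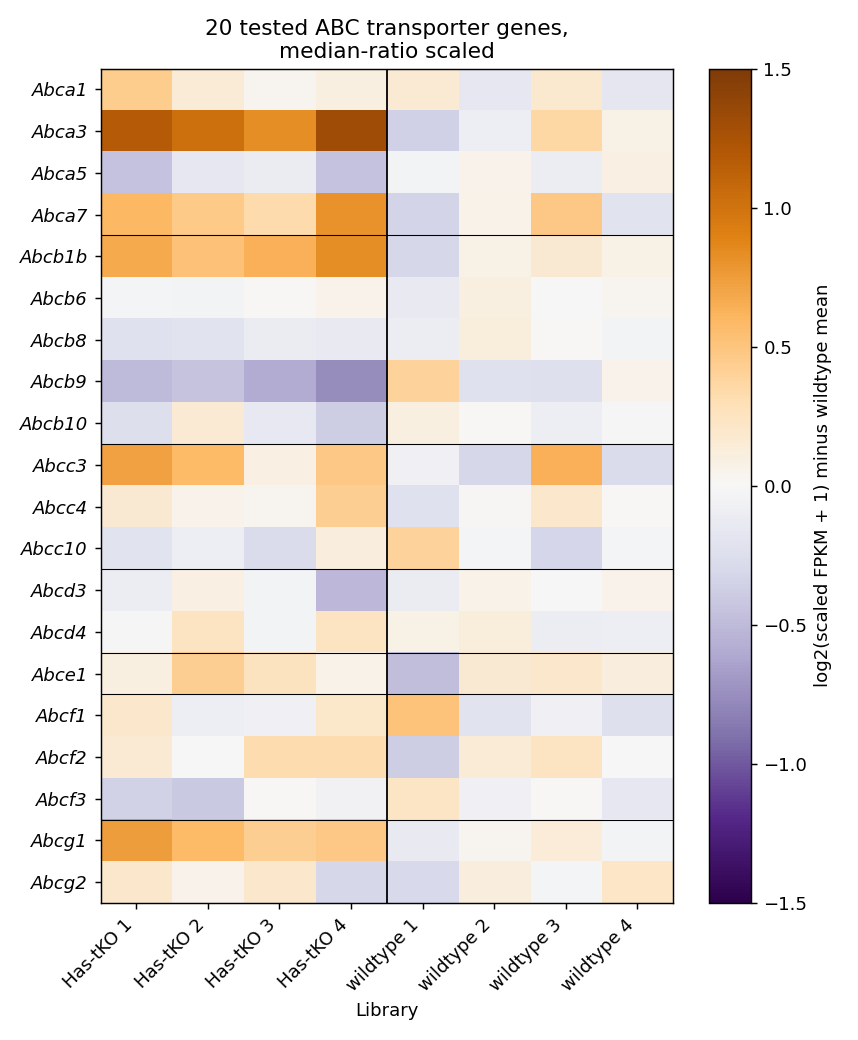
Each column is a library, Has-tKO on the left and wildtype on the right, and each row is 1 of 20 of the 22 tested ABC genes by subfamily. Colour is log2(scaled FPKM + 1) minus the wildtype mean of that gene. Of the 20, 8 are above the wildtype mean in all 4 Has-tKO libraries (Abca1, Abca3, Abca7, Abcb1b, Abcc3, Abcc4, Abce1 and Abcg1), and 3 are below it in all 4 (Abca5, Abcb8 and Abcb9). These counts leave out the spread of the wildtype libraries, and the shares over all tested genes were not computed. The scaled levels of Abca1, Abca7, Abcc3, Abcc4 and Abce1 overlapped between the genotypes.

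Abca3 lies on chromosome 17 within 10 Mb of Has1, 1 of the 2 constitutively deleted genes, by the GRCm38 annotation. Such a stretch can differ in origin between a knockout strain and its control, and here the genotype and the origin of the stretch cannot be told apart. Of 131 tested genes within 10 Mb of Has1, 5 rose and none fell as deposited (3.82%, against 1.78% of all tested genes), namely Sod2, Tnfrsf12a, Abca3, Msrb1 and Dusp1. After scaling 3 of 125 tested genes rose (Sod2, Tnfrsf12a and Abca3) and 1 fell (Cacna1h), where 1.38% of all tested genes rose and 1.32% fell. These 6 genes are named because they make up the counts, and Abca3 had the largest fold change of them in both fits. The median was 0.10 over the 131 as deposited and -0.08 over the 125 of them that were tested after scaling. Of the 12 tested genes that flank Abca3, 6 on each side, none passed in limma, with log2 fold changes of -0.30 to 0.56 as deposited (smallest adjusted p = 0.226) and -0.51 to 0.35 after scaling (smallest adjusted p = 0.125). The nearest tested neighbours were Ccnf (0.05 as deposited, -0.09 after scaling) and Rnps1 (-0.30 as deposited, -0.51 after scaling). Abca17, the other ABC gene in this stretch, was listed at 0 in all 8 libraries.

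**Figure D4:**
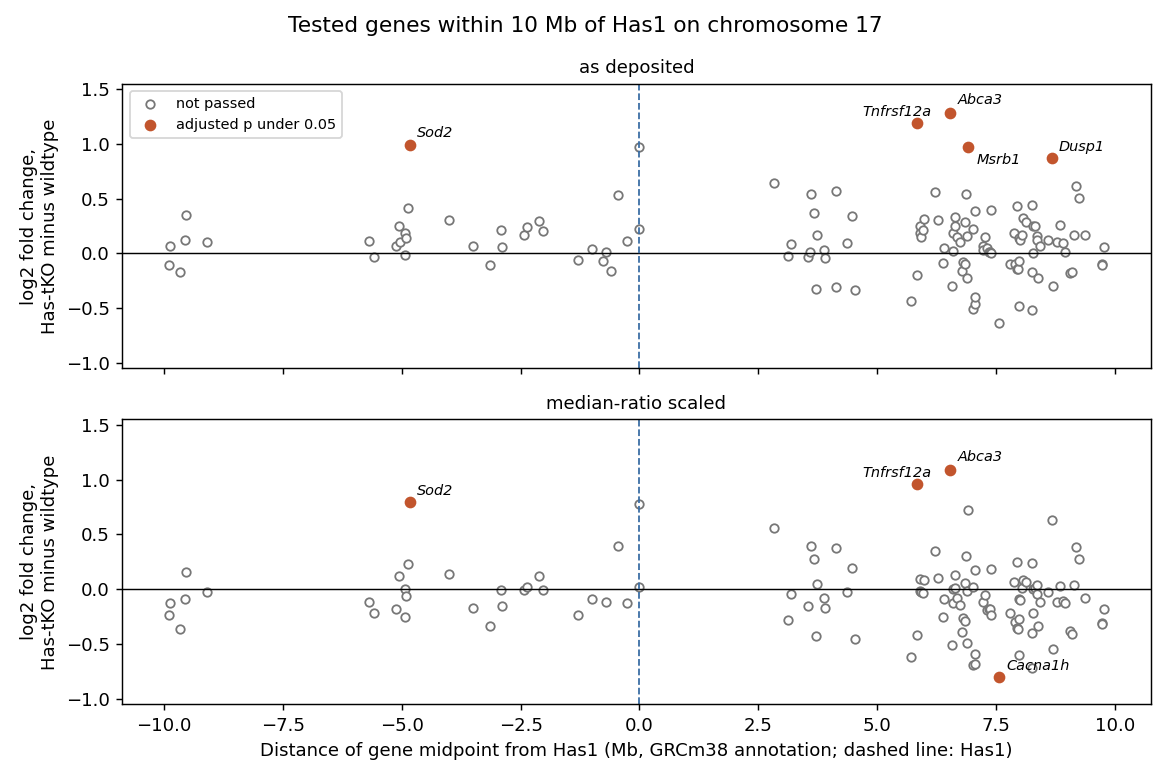
Log2 fold change, Has-tKO minus wildtype, of the 131 tested genes within 10 Mb of Has1 against the distance of the gene midpoint from Has1, as deposited above and median-ratio scaled below. Filled points passed, and Abca3 is the highest point in both panels (131 genes as deposited, 125 of them after scaling).

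Besides Abca3, chromosome 17 holds Abcg1, Abcf1, Abcc10, Abca17, Abcg5 and Abcg8, all except Abca17 outside that stretch. Of 475 tested genes on chromosome 17, 14 passed as deposited (2.95%, against 1.78% of all tested genes). No ABC gene lay within 10 Mb of Has2 or Has3. In the windows around these 2 genes 1 of 32 and 0 of 89 tested genes passed as deposited with limma, and 0 and 2 after scaling. The 2 ABC genes with other symbols on chromosome 17, the peptide transporter subunits Tap1 and Tap2 of antigen presentation, were tested and did not pass. Tap1 had 12.0 ± 5.21 FPKM in Has-tKO and 10.2 ± 3.06 FPKM in wildtype, and Tap2 had 14.9 ± 3.35 FPKM in Has-tKO and 13.2 ± 2.16 FPKM in wildtype (log2 fold change 0.16, limma adjusted p = 0.701). None of 8 tested genes of the peptide loading complex passed in either fit, Tapbpl having the smallest p as deposited (0.43, adjusted p = 0.182). The third ABC gene with another symbol, the chloride channel Cftr, was at 0.0141 ± 0.0222 FPKM in Has-tKO and 0.0226 ± 0.0158 FPKM in wildtype.

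The remaining members were at or near the floor of the table. Listed at 0 in all 8 libraries were 8 genes, the testis-biased Abca14, Abca15, Abca16 and Abca17, together with Abcb5, Abcc2, Abcc8 and the intestinal sterol exporter gene Abcg5. A further 16 had values above 0 but stayed under the filter, with means over the 8 libraries up to 0.821 FPKM, and in none of them were the genotypes without overlap. Of these 16, Abca4 of the retina, Abca12 of the skin, Abca13, the bile salt exporter gene Abcb11, Abcc12 and Abcg8 had a mean under 0.1 FPKM, with 0.0751 FPKM as the highest single value. Abcg4, a sterol exporter known from the brain, was at 0.261, 0.175, 0.263 and 0.629 FPKM in Has-tKO and at 0.320, 0.781, 0.413 and 0.428 FPKM in wildtype, with overlap. Among the tested members described here the order by mean level over all 8 libraries began with Abca1 (32.3 FPKM), Abcf2 (13.3 FPKM), Abcg1 (9.39 FPKM) and Abce1 (9.27 FPKM), and ended with Abcb9 (1.52 FPKM), Abca5 (1.49 FPKM) and Abcg2 (1.45 FPKM). The library ranges of neighbours in this order overlapped, except that every Abca1 value was above every Abcf2 value. All 46 members together summed to 162 ± 8.29 FPKM in Has-tKO and 121 ± 29.5 FPKM in wildtype, with wildtype 1 lowest at 81.1 FPKM.

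**Figure D5:**
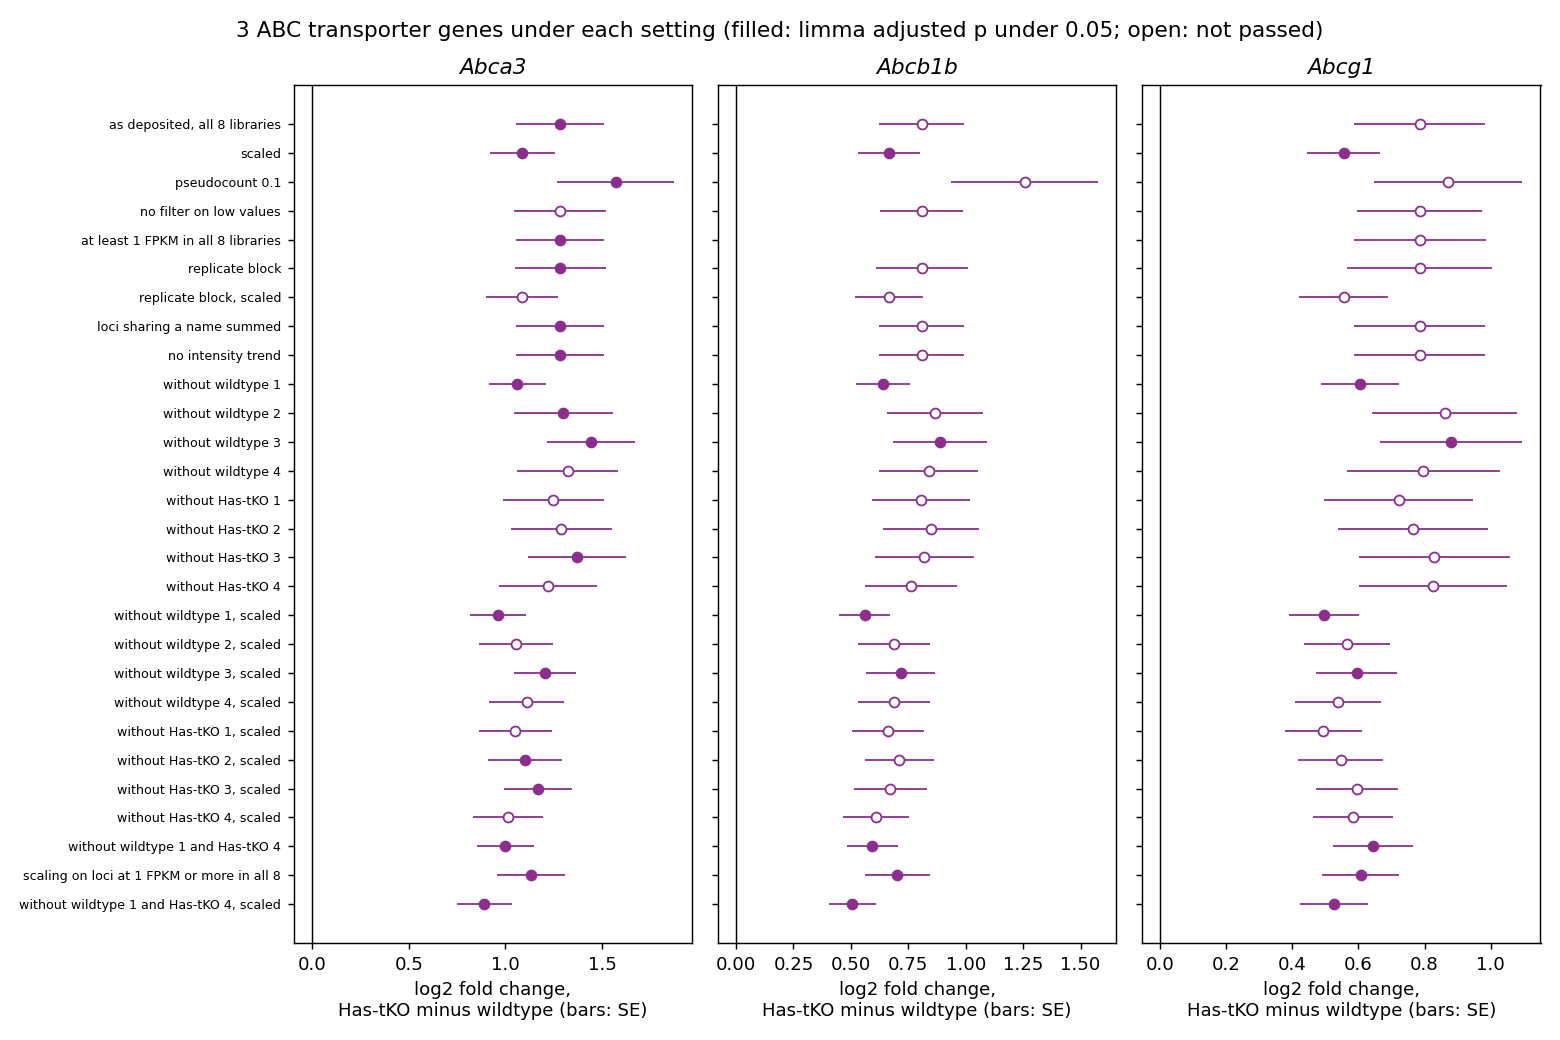
Log2 fold change, Has-tKO minus wildtype, of Abca3, Abcb1b and Abcg1 under each setting of the analysis, with SE as bars and filled points where the limma adjusted p was under 0.05. All points lie above 0, and Abca3 passed in 17 of 27 alternative settings, Abcb1b in 8 of 26 and Abcg1 in 8 of 27.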

How the data were processed

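RNA was sequenced from 8 cultures, 1 per mouse. Libraries were made after removal of ribosomal RNA and by tagmentation, per the labels' protocols, so reads carry no strand and overlapping or merged genes cannot be told apart. FPKM per locus were deposited by the authors in 1 table of 76557 loci, 49868 with a gene name. The submitters' processing notes name bcl2fastq, fastp, HISAT2, StringTie and DESeq2 and the builds GRCm39 and hg38. The sources used here do not give their versions, and DESeq2 was not run here. All 8 columns were matched to samples by name.

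Named genes at 1 FPKM or more in at least 4 libraries were fitted as log2(FPKM + 1) with limma 3.58.1 (R 4.3.3, intensity trend) without covariates, with Benjamini-Hochberg adjustment over all 9915 tested genes and a threshold of 0.05. A fold change on this scale understates the change of low genes. Where loci share a name (67 names on 153 loci), 1 entry per name was kept and their sum was an alternative. Scaled values were divided by median-ratio size factors over 19489 loci above 0 in all libraries (9784 genes tested). Depth is unknown. The best of many steps tried for 1 read put 13.45% to 17.74% of the low values within 0.05 of whole. Chance gives 10% for 1 fixed step and more for the best of many, so these shares do not show a step. Exact 0 values are reported as listed.

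The fit was tested on simulated data. Chromosomes and upstream sequences came from RefSeq tables of GRCm38.p6, which is not the build of the files, and were used for names, neighbours and sequences only. Figures were drawn with matplotlib 3.10.9 (Python 3.11.15). The members and lists were chosen with earlier results of these data known. Values in every library are given for members that passed in either fit, the member with the highest mean in each subfamily and a set of well-known members. They are also given for up to 3 members with the smallest p in each direction as deposited, where only 2 were negative. Individual results of 2 tested members are not reported here, though they are in the counts and sums. From each list the genes that passed are named, or the gene with the smallest p. Alternatives were scaling, a pseudocount of 0.1, other filters, a replicate block, summed loci, no intensity trend and leaving out libraries.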

Additional observations from a re-analysis of the deposited data

How the results depend on the processing

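As deposited, 1 ABC gene passed. The count was 3 after median-ratio scaling, 3 with scaling on loci at 1 FPKM or more in all 8 libraries, 3 without wildtype 1 and Has-tKO 4, and 3 without these libraries after scaling. It was 0 without the filter on low values (limma, 27170 genes tested, 10 of 38 ABC genes at an unadjusted p under 0.05) and 0 with a replicate block and scaling (5 at an unadjusted p under 0.05). Leaving out 1 library at a time gave 0 to 5 as deposited and 0 to 4 after scaling. Shares of all tested genes that passed are given here only for all 8 libraries, at 1.78% as deposited and 2.7% after scaling. Counts under the other settings therefore have no background here to be read against. The count was 0 as deposited without wildtype 4, Has-tKO 1, Has-tKO 2 or Has-tKO 4, where 4 to 7 ABC genes had an unadjusted p under 0.05 in limma, and it was highest in both fits without wildtype 3. The cause of these differences in the count was not tested. The second scaling and the scaled fit without wildtype 1 and Has-tKO 4 were chosen after seeing the data. Replicate numbers are shared between the genotypes but did not pair the samples (correlations of deviations of -0.083, 0.311, -0.121 and -0.0588), and the replicate block alone gave a count of 1, with Abca3 at an adjusted p of 0.0213. Abca3, Abcg1 and Abcb1b kept their sign under every setting run.

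Small fold changes turned round with scaling. Under median-ratio scaling, with and without the replicate block, they were -0.00408 for Abcb6, -0.199 for Abcf3, -0.1134 for Abcc10, -0.1399 for Abcd3, -0.165 for Abcb8 and -0.1487 for Abcb10. Without wildtype 1 and Has-tKO 4 they were -0.08152 for Abcf3 and -0.1186 for Abcb8. With the second scaling they were -0.1516 for Abcf3, -0.07513 for Abcc10, -0.09439 for Abcd3, -0.1191 for Abcb8 and -0.1015 for Abcb10. Without wildtype 1 and Has-tKO 4 after scaling they were -0.08706 for Abcb6, -0.189 for Abcf3, -0.07398 for Abcc10, -0.0693 for Abcd3, -0.2247 for Abcb8 and -0.05751 for Abcb10. With 1 library left out, as deposited and scaled together, the range was -0.069 to 0.29 for Abcb6, -0.27 to 0.075 for Abcf3, -0.22 to 0.12 for Abcc10, -0.22 to 0.20 for Abcd3, -0.22 to 0.14 for Abcb8, -0.25 to 0.15 for Abcb10, -0.079 to 0.29 for Abcg2 and -0.018 to 0.34 for Abcf1. Unknown depth limits what can be said of genes under the filter.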
